A study of Caenorhabditis elegans with 12 samples.

Results

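The catalogued circular RNAs were the 272 circRNAs, of 2136 counted in these libraries (12.7%), that the count tables listed under a catalogue identifier beginning with cel_circ_. The other 1864 were listed without one and are called uncatalogued here. The rule reads the name and no count. They were counted in 12 libraries of whole wild type N2 *C. elegans*, 3 for each of 4 groups. Control worms were untreated. Glu worms received 2% glucose from the L4 larval stage, DMSO+Glu worms received 2% glucose with the solvent DMSO, and Nar+Glu worms received 2% glucose with 25 μM naringin, a citrus flavonoid, dissolved in DMSO. All groups were kept on NGM agar with the *Escherichia coli* strain OP50 as food, and progeny were removed by letting the adults settle. Worms of every group were synchronized at the L4 stage and collected as adults after the same number of days. The labels name no separate cultures behind the 3 libraries of a group, so the tests measure the spread between these libraries, which may be technical.

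A circRNA forms when the spliceosome joins the end of an exon to the start of the same or an upstream exon instead of the next one downstream, which closes the RNA into a ring. The junction read across this back-splice is the evidence that is counted. A ring has no free ends, so exonucleases that degrade linear mRNA act poorly on it, and many circRNAs outlast the mRNA of their gene. They are known to be frequent in neural tissue and to accumulate with age in worms and other animals. A ring also has no poly(A) tail, and these libraries were made from RNA enriched for poly(A), so the counts are those of molecules that came through that selection. The identifiers came without positions, host genes or sequences, and none of these are given here.

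The total circRNA count was 856 to 1550 per library, and 397 to 751 of these counts fell on catalogued circRNAs. The deepest library was DMSO+Glu replicate 1. Markers of neurons, body wall muscle, germline and intestine were each above 0 FPKM in all 12 libraries.

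Although they made up 12.7% of the circRNAs, the catalogued members held 6029 of the 13015 counts, or 46.3%. In Control the catalogued share was 46.4%, 47.0% and 50.8% of the circRNA count of a library. In Glu it was 46.7%, 46.1% and 45.5%. In DMSO+Glu it was 48.5%, 42.7% and 45.4%, and in Nar+Glu 44.6%, 47.3% and 45.4%. The groups overlapped in all 3 comparisons. The 95% Wilson interval of the highest share, in Control replicate 3, was 47.7% to 53.9%, and that of the lowest, in DMSO+Glu replicate 2, was 39.99% to 45.4%. Such intervals cover counting error only, since reads without molecular identifiers are not independent molecules.

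**Figure D1:**
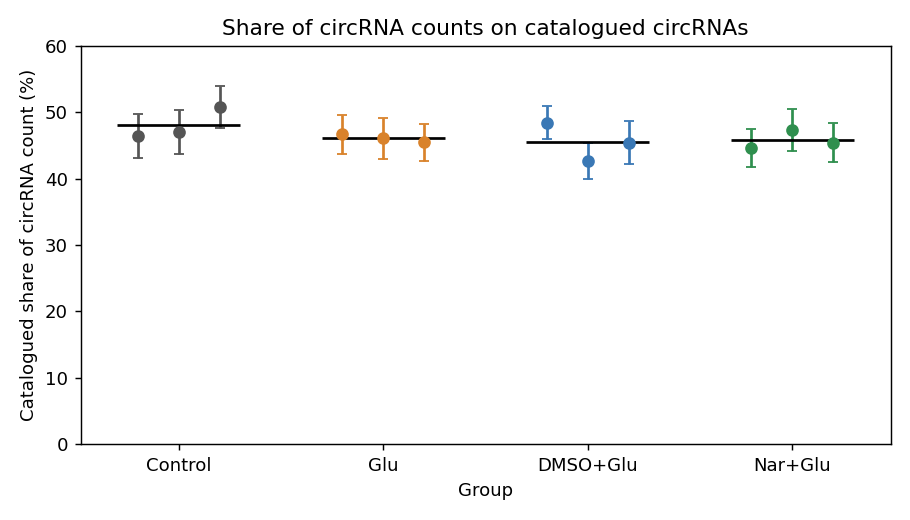
Share of the circRNA count of each library that fell on catalogued circRNAs (percent, vertical axis) in the 4 groups. Points are libraries, bars are 95% Wilson intervals, and horizontal lines are group means of 48.1%, 46.1%, 45.5% and 45.8%.

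The mean share was 46.1% ± 0.59 in Glu and 48.1% ± 2.41 in Control (SD, n = 3 each), a difference of -1.97 percentage points (exact two-sided permutation p = 0.2). Nar+Glu, at 45.8% ± 1.37, differed from DMSO+Glu, at 45.5% ± 2.88, by 0.256 points (SD, n = 3 each; exact permutation p = 1). DMSO+Glu differed from Glu by -0.567 points (exact permutation p = 0.7, n = 3 each). With 3 libraries against 3 this exact permutation test cannot go below p = 0.1. No difference in the share was larger than the larger SD of the groups compared, although that between Glu and Control exceeded the Glu SD of 0.59. The sign was not stable: among tested circRNAs only, Glu minus Control was 1.21 points and Nar+Glu minus DMSO+Glu was -0.958 points, and DMSO+Glu minus Glu was 0.85 points without DMSO+Glu replicate 2.

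The number of counts behind these shares differed more than the shares did. The catalogued count averaged 435 ± 54.1 for Control and 516 ± 49.2 for Glu, then 571 ± 167 for DMSO+Glu and 487 ± 35.0 for Nar+Glu (3 libraries each, ± SD). The total circRNA count of all 3 Glu libraries, at 1142, 1000 and 1220, lay above that of all 3 Control libraries, at 856, 875 and 978, which gives the smallest p the exact permutation test allows (p = 0.1, n = 3 each). The catalogued count alone overlapped between these groups (exact permutation p = 0.2, n = 3 each). The total number of reads per library was not analysed here, so a higher circRNA count and a deeper library cannot be told apart, and values below are scaled to 1000 circRNA counts of the same library.

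Single catalogued circRNAs were more abundant than uncatalogued ones. A catalogued circRNA with a count in a library had 4.51 ± 0.423 counts there, against 2.22 ± 0.0792 for an uncatalogued one (mean ± SD over 12 libraries). The catalogued value was higher in 12 of 12 libraries, with 3.93 to 5.36 counts against 2.09 to 2.35 (exact sign-flip permutation test over libraries, p = 0.000488, the smallest it can give). This p measures how repeatable the difference was between libraries, which count the same circRNAs. It does not measure the spread between circRNAs. Summed over all libraries, the median was 7 counts for a catalogued and 2 for an uncatalogued circRNA. Of the circRNAs with 100 counts or more, 12 were catalogued and 6 were not. Catalogued circRNAs filled 5 of the 10, 12 of the 20 and 36 of the 50 most abundant places.

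**Figure D2:**
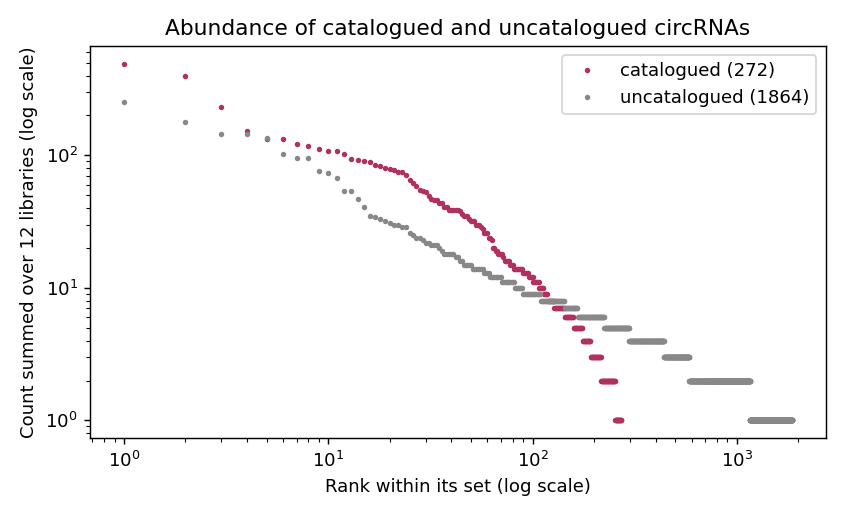
Count summed over 12 libraries (vertical axis, log scale) against rank within the catalogued and the uncatalogued circRNAs (horizontal axis, log scale). Each point is 1 circRNA, and the most abundant member, with 491 counts, lies above the most abundant uncatalogued circRNA, with 252.

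Detection followed abundance. In all 12 libraries 30 members had a count, and these 30 held 56.9% of the catalogued counts, whereas 11 uncatalogued circRNAs had a count in all 12. At the other end, 55 members (20.2%) and 1318 uncatalogued circRNAs (70.7%) had a count in 1 library. A library held a count for 98 to 140 members. Brought to the depth of the shallowest library, 856 circRNA counts, the expected number was 93.2 to 117 members per library, and the groups overlapped. At that depth Control had 103 ± 2.54 members and Glu had 104 ± 5.00, while DMSO+Glu had 108 ± 10.5 and Nar+Glu had 99.6 ± 5.69 (3 libraries each, ± SD). The exact permutation p was 0.9 for Glu against Control, 0.3 for Nar+Glu against DMSO+Glu and 0.6 for DMSO+Glu against Glu.

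Over the 3 libraries of a group, 174 members had a count for Control, 182 for Glu, 191 for DMSO+Glu and 173 for Nar+Glu. Members found in all 4 groups numbered 94, in 3 groups 52, in 2 groups 62 and in 1 group 64. Those found in 1 group had at most 6 counts there. A count of 0 in a group allows up to 3 counts over that group, so most of these absences were not distinguishable from a low level at this depth. The exception in size was cel_circ_0000558, with 49 counts in the other 3 groups and 0 in Control, described below.

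The counts were concentrated in few members. The 3 most abundant held 18.5% of the catalogued counts, the top 20 held 48.0%, and 22 members were needed to reach 50%. In contrast, 159 members had fewer than 10 counts in all 12 libraries together, and 59.3% of all member values were 0.

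The most abundant circRNA in the series, catalogued or not, was cel_circ_0000308. In Control it had 28, 24 and 29 counts. In Glu it had 62, 35 and 60 counts, and in DMSO+Glu 89, 36 and 44. In Nar+Glu it had 39, 27 and 18 counts. Scaled to 1000 circRNA counts the level was 29.9 ± 2.65 for Control and 46.2 ± 9.99 for Glu, against 44.4 ± 14.7 for DMSO+Glu and 26.1 ± 8.42 for Nar+Glu (3 libraries each, ± SD). All 3 Glu libraries, at 54.3, 35.0 and 49.2 per 1000, were above the highest Control library, at 32.7, while DMSO+Glu and Nar+Glu overlapped, since DMSO+Glu replicate 2 was at 28.5 and Nar+Glu replicate 1 at 33.3.

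The next member, cel_circ_0000603, had 23, 19 and 30 counts in Control, 43, 36 and 33 in Glu, 55, 46 and 23 in DMSO+Glu, and 30, 32 and 25 in Nar+Glu. Its scaled levels were 26.4 ± 4.5, 33.6 ± 5.71, 32.2 ± 6.46 and 27.5 ± 5.27 per 1000 in the same order (SD, n = 3 each), and every group overlapped with every other. The one after it, cel_circ_0000333, had 14, 14 and 21 counts in Control, 17, 16 and 21 in Glu, 15, 16 and 18 in DMSO+Glu, and 23, 32 and 24 in Nar+Glu. All 3 Nar+Glu libraries, at 19.6, 33.4 and 22.4 per 1000, were above the 3 DMSO+Glu libraries, at 9.68, 12.6 and 19.4, but the lowest of them was below Control replicate 3, at 21.5.

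**Figure D3:**
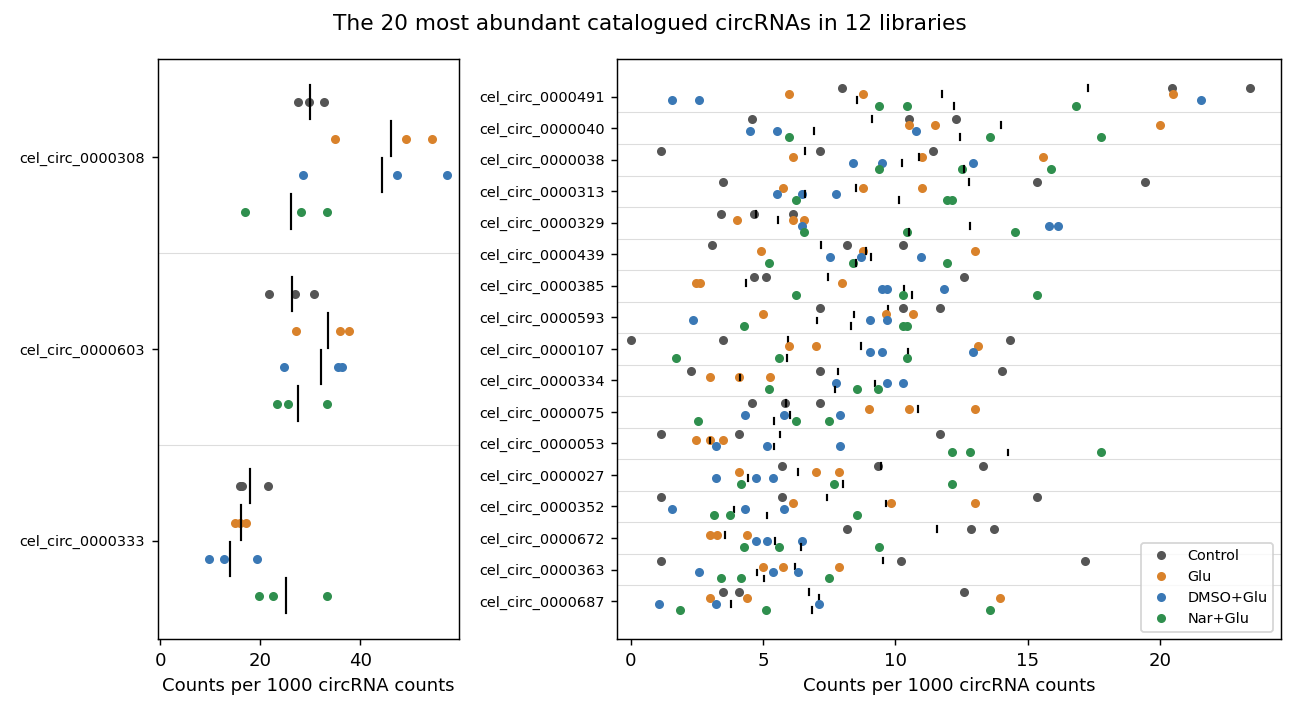
Counts per 1000 circRNA counts (horizontal axis) of the 20 most abundant catalogued circRNAs. Points are libraries in the colour of their group, and short black lines are group means. The scale differs between the left panel, with the top 3, and the right panel, with the next 17.

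The fourth member showed how far libraries of 1 group could lie apart. cel_circ_0000491 had 20, 7 and 20 counts in Control, 10, 6 and 25 in Glu, 4, 2 and 20 in DMSO+Glu, and 11, 10 and 18 in Nar+Glu. In DMSO+Glu that was 2.58, 1.58 and 21.5 per 1000, a chi-square of 37.9 on 2 degrees of freedom against equal proportions. Over the 12 members with 100 counts or more, the spread within groups was 2.32 times what counting alone gives (chi-square per degree of freedom, 96 degrees). Without cel_circ_0000491 it was 1.87 times over the other 11.

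Other members of the top 20 had from 79 to 134 counts in all. cel_circ_0000040 had 9, 4 and 12 counts in Control, 12, 20 and 14 in Glu, 7, 7 and 10 in DMSO+Glu, and 7, 13 and 19 in Nar+Glu. cel_circ_0000038 had 1, 10 and 7 counts in Control, 7, 11 and 19 in Glu, 13, 12 and 12 in DMSO+Glu, and 11, 12 and 17 in Nar+Glu. cel_circ_0000313 had 3, 17 and 15 counts in Control, 10, 11 and 7 in Glu, 12, 7 and 6 in DMSO+Glu, and 14, 6 and 13 in Nar+Glu. For each of these 3 the libraries of a group spread over much of the range of the other groups.

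Within-group spread was wide for several more of them. cel_circ_0000107 had 3, 0 and 14 counts in Control, while its 3 DMSO+Glu libraries had 14, 12 and 12. cel_circ_0000352 had 1, 5 and 15 counts in Control, and cel_circ_0000363 had 1, 15 and 10. cel_circ_0000687 had 5, 3 and 17 counts in Glu and 6, 13 and 2 in Nar+Glu. The group means of cel_circ_0000439 lay close together, at 7.18 to 9.07 per 1000, as did those of cel_circ_0000593, at 7.03 to 9.71. Those of cel_circ_0000027 were 4.45 to 9.45 and those of cel_circ_0000334 were 4.12 to 9.24.

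Of the 272 members, 119 (43.8%) reached 2 counts in 3 or more libraries and were tested, against 120 (6.44%) of the uncatalogued circRNAs. The 119 held 89.9% of the catalogued counts. The other 153 members had too few counts for a test, and the largest of them had 13 counts in all. Some sparse members passed this filter only with the libraries of the group in which they were high. Among them were cel_circ_0000119, cel_circ_0000162, cel_circ_0000254, cel_circ_0000291, cel_circ_0000310, cel_circ_0000474 and cel_circ_0000488. Their p-values, fold bounds and separations below are not free of that selection. Across the 119, Pearson's r of the scaled log2 levels was 0.447 to 0.577 between libraries of a group (median 0.544, 12 pairs) and 0.378 to 0.621 between libraries of different groups (median 0.509, 54 pairs), with ranges that overlapped. These correlations are across circRNAs, which are not replicates, and share the same few abundant members.

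The comparison of Glu with Control asked which circRNAs differed on high glucose. No member was called at an adjusted p below 0.05 (edgeR quasi-likelihood test, Benjamini-Hochberg over 239 circRNAs; lowest adjusted p = 0.794), as for all circRNAs tested (0%). An unadjusted p below 0.05 was found for 5 members by edgeR and 3 by DESeq2, which also called none. The looser thresholds of the study, an unadjusted p below 0.05 with more than 1.5-fold change, were passed by 5 members, 2 of them with higher and 3 with lower values in Glu, against 2.51% of all circRNAs tested. That share includes these 5, and the difference from it was not tested. The count of 5 is not above what an unadjusted threshold of 0.05 passes without any difference. The median log2 change was 0 over the 119 members and 0.14 over all 239 circRNAs.

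The member with the smallest p in this comparison was cel_circ_0000558. It had 0 counts in all 3 Control libraries, 6, 5 and 0 in Glu, 3, 7 and 3 in DMSO+Glu, and 15, 10 and 0 in Nar+Glu. The 11 counts in Glu were at least 2.95-fold higher than the 3 counts that the 0 over the Control group allows (edgeR unadjusted p = 0.00343, adjusted p = 0.794). This bound and those below take the observed count as exact. They leave out its counting error and the spread between libraries, so the true fold can be smaller. Glu replicate 3 and Nar+Glu replicate 3 were also at 0, so the groups were not separate. It passed the looser thresholds in 6 of 6 fits that left out 1 library.

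The most abundant circRNA, cel_circ_0000308, whose 12 values are given above, was 0.71 ± 0.30 higher in Glu than in Control on the log2 scale (estimate ± SE; edgeR unadjusted p = 0.0170, adjusted p = 0.794). An exact permutation test of its scaled level gave p = 0.1 (n = 3 each), the smallest possible. It passed the looser thresholds in 3 of 6 fits that left out 1 library.

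The 3 members with lower values were mostly sparse. cel_circ_0000310 had 2, 6 and 2 counts in Control, 0 in every Glu and DMSO+Glu library, and 0, 0 and 2 in Nar+Glu, at least 4.14-fold lower in Glu than in Control (edgeR unadjusted p = 0.0179, adjusted p = 0.794). cel_circ_0000254 had 4, 0 and 4 counts in Control, 0 in Glu, 0, 0 and 3 in DMSO+Glu, and 0 in Nar+Glu, at least 3.31-fold lower in Glu (unadjusted p = 0.0295). cel_circ_0000672 was better covered, with 11, 12 and 8 counts in Control, 5, 3 and 4 in Glu, 8, 6 and 6 in DMSO+Glu, and 5, 9 and 6 in Nar+Glu. Its Glu libraries, at 4.38, 3.00 and 3.28 per 1000, lay below its Control libraries, at 12.9, 13.7 and 8.18, with a log2 difference of -1.58 ± 0.71 (SE; edgeR unadjusted p = 0.0265, adjusted p = 0.794). Of the fits without 1 library, cel_circ_0000310 passed the looser thresholds in 3 of 6, cel_circ_0000672 in 2 of 6 and cel_circ_0000254 in 1 of the 4 in which it was tested.

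Of the 119 members, 8 had Glu and Control libraries that did not overlap, 3 higher and 5 lower in Glu, against 5.02% of all circRNAs tested. The count of 8 lies somewhat above that share, which includes these members, and the difference was not tested. Separation of 3 libraries from 3 alone has an exact permutation p of 0.1, so such members turn up without any difference between groups. Among the 8 members, chosen after their values were seen, cel_circ_0000488 had 3, 4 and 2 counts in Control, 1, 0 and 0 in Glu, 0, 2 and 1 in DMSO+Glu, and 0, 1 and 0 in Nar+Glu. cel_circ_0000075, of the top 20, had 5, 4 and 7 counts in Control, 12, 13 and 11 in Glu, 9, 10 and 4 in DMSO+Glu, and 3, 6 and 8 in Nar+Glu. Its Glu mean of 10.8 ± 2.01 per 1000 stood beside 5.86 ± 1.29 in Control (SD, n = 3 each; edgeR log2 difference 0.94 ± 0.66, unadjusted p = 0.158, adjusted p = 0.794).

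**Figure D4:**
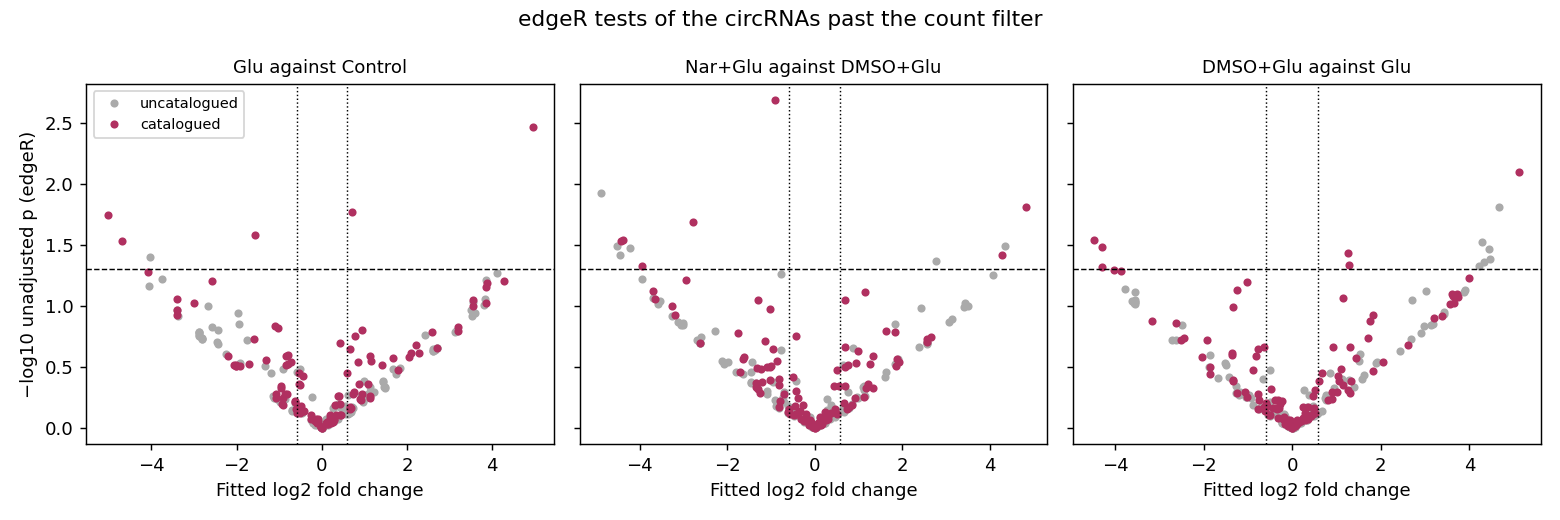
Fitted log2 fold change (horizontal axis) and −log10 of the unadjusted edgeR p (vertical axis) of 119 catalogued and 120 uncatalogued circRNAs in the 3 comparisons. Dotted lines mark 1.5-fold and dashed lines the unadjusted threshold of 0.05. For circRNAs with 0 counts in 1 group the fitted change is no measured fold.

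Setting Nar+Glu against DMSO+Glu asked which circRNAs differed with naringin on high glucose. No member was called (edgeR, lowest adjusted p = 0.490), and no circRNA of the 239 was (0%). An unadjusted p below 0.05 was found for 7 members by edgeR and 2 by DESeq2, which called none. The looser thresholds were passed by 7 members, 2 with higher and 5 with lower values in Nar+Glu, against 5.44% of all circRNAs tested. The count of 7 lies near that share and is no trait of the catalogued members. With counts scaled to the library total and no TMM factors (trimmed means of log ratios, used by edgeR to rescale libraries) the split was 4 higher and 4 lower, and the median of all circRNAs moved up by 0.14 on the log2 scale. The median log2 difference was -0.10 over the members and -0.07 over all circRNAs tested.

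cel_circ_0000308 again stood out by abundance, with 39, 27 and 18 counts in Nar+Glu and 89, 36 and 44 in DMSO+Glu. The log2 difference was -0.92 ± 0.30 (SE; edgeR unadjusted p = 0.00205, adjusted p = 0.490), while the exact permutation test of its scaled level, whose groups overlapped, gave p = 0.2 (n = 3 each). It passed the looser thresholds in 5 of 6 fits that left out 1 library. The DMSO+Glu level of 44.4 ± 14.7 per 1000 lay close to the Glu level of 46.2 ± 9.99 (SD, n = 3 each; exact permutation p = 0.9).

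The remaining 6 had at most 17 counts in either group. cel_circ_0000119 had 5, 2 and 4 counts in Nar+Glu and 0 in every DMSO+Glu and Control library, with 0, 3 and 2 in Glu. This was at least 4.29-fold higher than DMSO+Glu (edgeR unadjusted p = 0.0155, adjusted p = 0.824). cel_circ_0000291 had 2, 5 and 0 counts in Nar+Glu and 0 in DMSO+Glu, at least 2.73-fold higher (unadjusted p = 0.0385), with 4 counts in Control replicate 1 and 1 in Glu replicate 3 elsewhere.

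Those with lower values included cel_circ_0000295, with 0, 2 and 0 counts in Nar+Glu, 7, 8 and 2 in DMSO+Glu, 9, 2 and 3 in Glu, and 1, 4 and 6 in Control. The ratio of Nar+Glu to DMSO+Glu was 0.138, with a 95% counting interval of 0.0154 to 0.580 (edgeR unadjusted p = 0.0203, adjusted p = 0.824). cel_circ_0000130 had 2, 5 and 1 counts in DMSO+Glu and cel_circ_0000712 had 2, 2 and 4, and both had 0 in every Nar+Glu library, at least 2.28-fold lower. cel_circ_0000264 had 2, 4 and 0 counts in DMSO+Glu and 0 in Nar+Glu, at least 1.71-fold lower if its 6 counts are taken as exact. Each of these 3 also had counts in Control and Glu, from 1 to 6 per group. In the fits without 1 library cel_circ_0000119 passed the looser thresholds in 5 of 6, cel_circ_0000295 in 3 of 6, cel_circ_0000130 and cel_circ_0000712 in 2 of 6 each, cel_circ_0000264 in 1 of 6 and cel_circ_0000291 in 1 of 4.

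**Figure D5:**
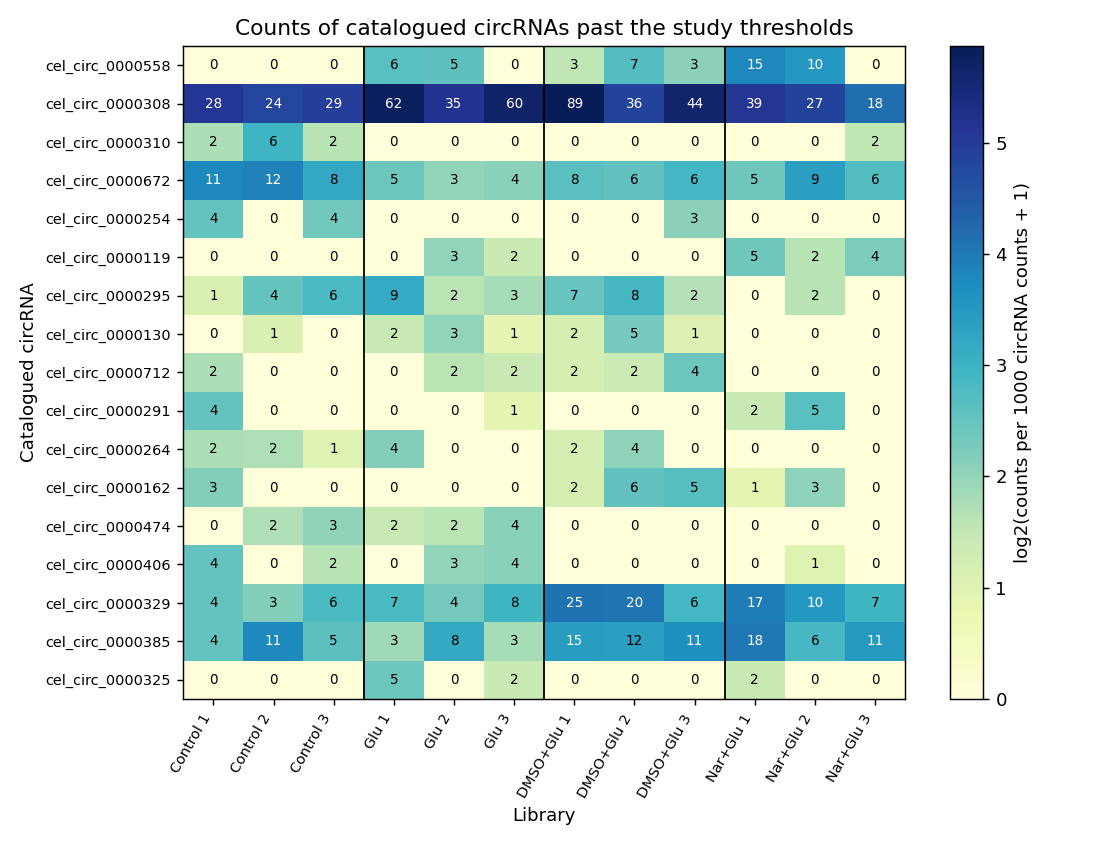
Counts of the 17 catalogued circRNAs past the looser thresholds in at least 1 comparison (rows), in the 12 libraries (columns). Numbers are counts, and the colour is log2 of the counts per 1000 circRNA counts plus 1. Most rows hold single-digit counts, and cel_circ_0000308 holds 18 to 89.

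Non-overlapping libraries were found for 10 of the 119 members, 7 higher and 3 lower in Nar+Glu, against 7.11% of all circRNAs tested. The count of 10 lies near that share and is no trait of the catalogued members. Some separations were narrow: for cel_circ_0000295 the nearest library of each group had 2 counts. One of the 20 most abundant members, cel_circ_0000053, had its 3 Nar+Glu libraries above the other 9. It had 15, 17 and 13 counts in Nar+Glu, 8, 10 and 3 in DMSO+Glu, 4, 3 and 3 in Glu, and 10, 1 and 4 in Control. That was 14.2 ± 3.06 per 1000 in Nar+Glu and 5.43 ± 2.35 in DMSO+Glu (SD, n = 3 each; edgeR log2 difference 1.14 ± 0.64, unadjusted p = 0.0764, adjusted p = 0.824). The separation from Control was narrow. After scaling, the Nar+Glu library with 13 counts lay only just above the shallower Control library with 10. cel_circ_0000333, given above, differed by 0.70 ± 0.41 on the log2 scale (unadjusted p = 0.0899, adjusted p = 0.824).

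Separation of 1 group from all other 9 libraries was rare. It was found for 2 members with Control above the rest, cel_circ_0000310 and cel_circ_0000488, against 0.837% of all circRNAs tested. It was found for 1 with Glu above, cel_circ_0000075 (0.418% of all tested), and for 1 with Nar+Glu above, cel_circ_0000053 (0.418%). These percentages count the members named here and no uncatalogued circRNA, so they are no separate background. cel_circ_0000310 and cel_circ_0000488 passed the filter of 2 counts in 3 libraries only with the Control libraries in which they were high. Their separation was thus not free of that filter. No member set DMSO+Glu apart (0% of all tested).

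The comparison of DMSO+Glu with Glu gave the solvent background of the naringin comparison. No member was called (edgeR, lowest adjusted p = 0.647; 0% of all circRNAs). An unadjusted p below 0.05 was found for 6 members by edgeR and 3 by DESeq2, which called none. The looser thresholds were passed by 6 members, 3 with higher and 3 with lower values in DMSO+Glu, against 5.02% of all circRNAs tested. The count of 6 lies near that share and is no trait of the catalogued members. The split was 2 higher and 4 lower with scaling to the library total, and 3 higher and 0 lower with DESeq2. Members past these thresholds thus numbered 6 for the solvent and 7 for naringin in the solvent, and the difference between these counts was not tested.

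Among these, cel_circ_0000162 had 2, 6 and 5 counts in DMSO+Glu, 0 in every Glu library, 3, 0 and 0 in Control, and 1, 3 and 0 in Nar+Glu. It was at least 3.89-fold higher in DMSO+Glu than in Glu (edgeR unadjusted p = 0.00796, adjusted p = 0.647) and passed in 6 of 6 fits that left out 1 library. cel_circ_0000329 had 25, 20 and 6 counts in DMSO+Glu, 7, 4 and 8 in Glu, 4, 3 and 6 in Control, and 17, 10 and 7 in Nar+Glu, a log2 difference between DMSO+Glu and Glu of 1.25 ± 0.60 (SE; unadjusted p = 0.0371). Its DMSO+Glu replicate 3, at 6.46 per 1000, was within the range of Glu. cel_circ_0000385 had 15, 12 and 11 counts in DMSO+Glu, 3, 8 and 3 in Glu, 4, 11 and 5 in Control, and 18, 6 and 11 in Nar+Glu, with no overlap between DMSO+Glu and Glu (log2 difference 1.28 ± 0.64, unadjusted p = 0.0459).

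Of the members with lower values in DMSO+Glu, cel_circ_0000474 had 2, 2 and 4 counts in Glu and 0, 2 and 3 in Control, and 0 in all 6 libraries that received DMSO. It was at least 2.97-fold lower in DMSO+Glu than in Glu (edgeR unadjusted p = 0.0289, adjusted p = 0.647). cel_circ_0000406 had 0, 3 and 4 counts in Glu, 4, 0 and 2 in Control, 0 in DMSO+Glu and 0, 1 and 0 in Nar+Glu. cel_circ_0000325 had 5, 0 and 2 counts in Glu, 0 in Control and DMSO+Glu, and 2, 0 and 0 in Nar+Glu. Both were at least 2.60-fold lower in DMSO+Glu. In the fits without 1 library cel_circ_0000329 passed in 3 of 6, cel_circ_0000474 in 2 of 6, cel_circ_0000385 and cel_circ_0000406 in 1 of 6 each and cel_circ_0000325 in 1 of 4. Non-overlapping libraries were found for 14 of the 119 members, 8 higher and 6 lower, against 8.79% of all circRNAs tested. The count of 14 lies somewhat above that share, which includes these members, and the difference was not tested.

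The linear RNA of genes for splicing and other RNA processing was measured in the same libraries as FPKM, which scale reads by transcript length and library size. Whether each of them acts on circRNAs was not tested. Sequencing depth behind these values is unknown. The list of 28 splicing regulators, core splicing factors, editing, debranching and decay enzymes was chosen with earlier results of these data known, and all 28 were tested. RNA-binding proteins such as the muscleblind family are known to promote or restrain back-splicing by binding the flanking introns, and double-stranded RNA editing enzymes are known to reduce it.

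In Glu 8 of the 28 differed from Control, 2 higher and 6 lower (limma on log2(FPKM + 1), adjusted p below 0.05 over all genes tested), against 31.3% of all genes. The count of 8 lies near that share, so it is no trait of the list. The median log2 difference was -0.09 over the list and -0.06 over all genes. Higher in Glu was sup-12, a muscle splicing regulator, with 5.70, 5.40 and 4.88 FPKM in Control and 7.66, 6.56 and 8.13 in Glu (log2 difference 0.41, adjusted p = 0.0141). exc-7, of the ELAV family of RNA-binding proteins, was at 5.59 ± 0.191 FPKM in Control and 6.98 ± 0.326 in Glu (SD, n = 3 each; log2 difference 0.28, limma adjusted p = 0.0414). The groups did not overlap for either gene.

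The 6 lower genes included both adenosine deaminase family genes that act on double-stranded RNA. adr-2, which encodes the active editing enzyme, had 59.4, 49.5 and 51.6 FPKM in Control and 46.8, 43.1 and 41.7 in Glu (log2 difference -0.28, limma adjusted p = 0.0173). adr-1, its regulator, was at 24.8 ± 1.04 FPKM in Control and 21.6 ± 1.03 in Glu (SD, n = 3 each; -0.19, limma adjusted p = 0.0352). drsh-1, the Drosha nuclease of microRNA processing, differed by -0.29 (adjusted p = 0.0158), asd-1, a splicing regulator of the Fox-1 family, by -0.27 (adjusted p = 0.0211), prp-8, a core spliceosome protein, by -0.17 (adjusted p = 0.0297) and rsp-2, an SR protein, by -0.18 (adjusted p = 0.0483). Without Control replicate 1 the count of called genes dropped from 8 to 1, and without Glu replicate 2 to 2.

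In Nar+Glu 3 of the 28 differed from DMSO+Glu, all higher, against 9.87% of all genes. The count of 3 also lies near the share of all genes and is no trait of the list. The neuronal splicing regulator unc-75 had 4.52, 4.20 and 3.15 FPKM in DMSO+Glu and 7.04, 5.62 and 6.15 in Nar+Glu (log2 difference 0.56, limma adjusted p = 0.0304). sup-12 had 5.58, 7.55 and 6.71 FPKM in DMSO+Glu and 9.98, 9.30 and 9.27 in Nar+Glu (0.47, adjusted p = 0.0174). exc-7 had 6.49, 6.87 and 6.05 FPKM in DMSO+Glu and 9.48, 9.14 and 7.62 in Nar+Glu (0.38, adjusted p = 0.0239). No library overlapped between the groups for these 3. Without Nar+Glu replicate 1 none was called, and without DMSO+Glu replicate 1 or 3 the count was 1. In DMSO+Glu none of the 28 differed from Glu (limma, lowest adjusted p = 0.635, 0 at an unadjusted p below 0.05), against 1.25% of all genes.

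mbl-1, the muscleblind gene, was not called in any comparison. Its level was 12.6 ± 0.452 FPKM for Control and 15.1 ± 1.00 for Glu, and 14.3 ± 1.81 for DMSO+Glu and 18.0 ± 2.51 for Nar+Glu (3 libraries each, ± SD).

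Markers of tissues were also called in these comparisons, where 31.3% of all genes were called in Glu against Control and 9.87% in Nar+Glu against DMSO+Glu. The muscle and germline counts of 1 in the latter comparison lie near its share. Of 8 neuronal markers, synaptic genes such as rab-3 and snb-1 among them, 6 were higher in Glu than in Control (median log2 difference 0.54), and their summed level was 144 to 160 FPKM for Control, 180 to 197 for Glu, 171 to 195 for DMSO+Glu and 196 to 204 for Nar+Glu. With naringin 3 of the 8 were higher than in DMSO+Glu (median 0.26). Of 6 body wall muscle markers, such as the myosin genes unc-54 and myo-3, 5 were higher in Glu (summed 368 to 449, 489 to 533, 471 to 487 and 397 to 454 FPKM in the same order), and 1 was lower in Nar+Glu than in DMSO+Glu. Of 8 germline markers, such as the P granule genes pgl-1 and glh-1, 4 were lower in Glu (summed 742 to 791, 644 to 710, 629 to 693 and 583 to 647 FPKM in the same order), and 1 was lower in Nar+Glu. Of 6 intestinal markers, such as the vitellogenin gene vit-2 and the transcription factor gene elt-2, 2 were higher and 3 lower in Glu, and 2 were lower in Nar+Glu (summed 4654 to 4835, 4140 to 4299, 4258 to 4700 and 4322 to 4609 FPKM). None of these markers was called between DMSO+Glu and Glu. In whole worms a change in the share of RNA from a tissue and a change of expression within its cells cannot be told apart. The part of tissue makeup in the gene and circRNA values was not tested.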

How the data were processed

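RNA of whole worms was enriched for poly(A) and sequenced from stranded libraries. The authors counted back-splice junctions with STAR 2.5.2b and CIRCexplorer2 on WBcel235 and deposited raw circRNA counts per library. Deposited gene FPKM values were made by the authors with HISAT2 2.1.0, StringTie 1.3.3 and Ballgown. Versions are from the submitters' processing notes. The catalogue behind the identifiers is not given in the sources used here. Groups and replicate numbers came from the labels, and all 12 libraries were used.

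CircRNAs that reached 2 counts in 3 or more libraries were fitted by group over 12 libraries with edgeR 4.0.16 in R 4.3.3 (quasi-likelihood, TMM, library size set to the total circRNA count of 856 to 1550). At this depth a count of 0 in a library allows 1.94 to 3.50 per 1000. Genes with a mean above 1 FPKM were fitted with limma 3.58.1 on log2(FPKM + 1) with a mean-variance trend. Calls were at a Benjamini-Hochberg adjusted p of 0.05 over all features. Shares were compared by exact two-sided permutation. Fold bounds used a floor of 3 counts over the group at 0 and took the count of the other group as exact.

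The rule named the 20 most abundant members, those called or past the study thresholds, the 3 smallest p of each comparison, and called genes of the list. Members and lists were chosen with earlier results of these data known. The tissue markers, the single-member permutation tests, non-overlap counts, equal-depth numbers and the sign-flip test were added after the counts were seen. Alternatives were DESeq2 1.42.0, other scaling, filters and pseudocounts, a replicate block, fits to 6 libraries and leaving out each library. The fits were also run on simulated data. The simulated circRNA counts were set to vary less than those measured here (biological coefficient of variation 0.639). That run therefore does not show how well changes would be found at the spread of these data. Host genes were not analysed here because no positions came with the identifiers. Transcript FPKM values, series-wide matrices and the authors' own comparisons were not used, apart from their reported number of circRNAs for naringin. Figures were drawn with matplotlib 3.10.9.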

Additional observations from a re-analysis of the deposited data

How the results depend on the processing

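No circRNA was called in any comparison under DESeq2, other scaling, either filter, the replicate block, fits to 6 libraries or any fit without 1 library. No catalogued circRNA past the looser thresholds changed direction in a setting that tested it (8 to 12 settings each). Most of them had no count in the lower group, so no setting could have reversed their direction. Counts in both groups were present only for cel_circ_0000295, cel_circ_0000308, cel_circ_0000329, cel_circ_0000385 and cel_circ_0000672. The check is informative for these alone. The number past the looser thresholds was unstable. It was 6, 13 and 12 of all circRNAs and 5, 7 and 6 catalogued ones for Glu against Control, Nar+Glu against DMSO+Glu and DMSO+Glu against Glu. With DESeq2 it was 3, 4 and 4 (catalogued 3, 2 and 3), and with at least 5 counts in 3 libraries 3, 2 and 2 (catalogued 3, 2 and 2), where fewer circRNAs were tested. Without a filter it was 9, 14 and 12 (catalogued 6, 8 and 6), and with scaling to the library total 7, 15 and 12 (catalogued 6, 8 and 6). With only the 6 libraries compared it was 3 for Glu against Control (catalogued 3). Without 1 library it ranged from 5 to 8, 7 to 10 and 5 to 13 (catalogued 3 to 6, 4 to 8 and 2 to 7). The lowest catalogued counts were 3 without Glu replicate 3, 4 without DMSO+Glu replicate 1 or 2 or Nar+Glu replicate 1, and 2 without DMSO+Glu replicate 1 or 2. The causes were not tested.

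Over whole sets, same-numbered libraries of different groups showed no shared deviation (residual r -0.193 to 0.185 over catalogued circRNAs and -0.100 to 0.128 over genes, 18 pairs each). The numbers were therefore not treated as pairs. Such an r can miss a pattern in a subset of genes. In the gene list, rsp-1, rsp-6, sfa-1, uaf-1 and xrn-1, picked after their values were seen, were highest in replicate 1 of every group. In Nar+Glu uaf-1 was at 49.0, 33.8 and 25.2 FPKM. Whether a batch lies behind this was not tested. The replicate block gave 5 circRNAs past the looser thresholds for Nar+Glu against DMSO+Glu (catalogued 3) and 4 for DMSO+Glu against Glu (catalogued 2), and under it rsp-2 in Glu against Control was no longer called (adjusted p = 0.0601).

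The difference in catalogued share between Glu and Control turned from -1.97 to 1.21 percentage points when only tested circRNAs were counted (exact permutation p = 0.4), and was -2.98 without the most abundant member. That between Nar+Glu and DMSO+Glu turned from 0.256 to -0.958 among tested circRNAs and to -0.0657 with summed counts. Without 1 library the first it ranged from -2.81 to -0.587, and from -1.16 to 1.72 and -2.03 to 0.85 in the other comparisons. Genes of the RNA processing list called without 1 library numbered 1 to 7, 0 to 4 and 0. exc-7 in Glu against Control lost its call in 6 of 10 alternatives and rsp-2 in 7 of 10. Host gene results were not run under any setting, since no positions came with the identifiers. The biological coefficient of variation was 0.639. In all 12 libraries together 159 of the 272 members had fewer than 10 counts, and a 0 over a group allows up to 3.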
